A study of Mus musculus with 16 samples.

Results

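The 10 genes described here are members of the integrated stress response that acts through ATF4: *Atf4*, *Atf5*, *Atf3*, *Ddit3*, *Trib3*, *Asns*, *Fgf21*, *Sesn2*, *Mthfd2* and *Psat1*. They were chosen by name, as genes of the stress program known to act upstream of *Gdf15*, out of 49066 gene symbols measured in brown adipose tissue (BAT). All 16 libraries were used, from 4 mice of each genotype, WT and KO, in each sex, all on the C57BL6/J background. Every mouse was homozygous for the floxed *Gdf15* allele (*Gdf15* fl/fl), was 18 weeks old and had been fed a high-fat diet (HFD) for 12 weeks. The KO mice (GDF15 BKO) also carried the Tg(Ucp1-cre)1Evdr transgene, in which the *Ucp1* promoter drives Cre recombinase in thermogenic adipocytes, and their WT littermates carried no Cre. The transgene was present in KO mice alone, so an effect of Cre itself and of the loss of *Gdf15* cannot be told apart, and cells of BAT that do not use *Ucp1* keep the gene. The study housed mice singly in metabolic cages late in the diet, at a thermoneutral temperature that was warmer than the usual housing. Whether the sequenced mice were among them is not stated in the sources used here.

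The integrated stress response starts with kinases that phosphorylate the initiation factor eIF2 when amino acids run short, when proteins misfold in the endoplasmic reticulum (ER), when heme is lacking or when mitochondria are damaged. General translation then drops, while a few mRNAs with upstream reading frames, *Atf4* and *Atf5* among them, are translated more. ATF4 binds response elements together with partners of the C/EBP family and induces enzymes of amino acid synthesis, amino acid transporters, tRNA synthetases, feedback regulators and the secreted hormones FGF21 and GDF15. In BAT this program is known to follow mitochondrial stress. Because ATF4 is controlled mainly at the step of translation, mRNA levels report its amount only indirectly.

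Values are TPM, a unit that corrects reads for transcript length and makes every library add up to 1000000. TPM of different genes can therefore be compared, but every TPM is a share, and the number of reads behind it is not known. Mitochondrially encoded transcripts held 34.5 to 59.8% of each library's TPM, with the highest share in male WT replicate 1. In female WT replicate 4, 1 transcript without a match to the annotation took 16.5% of the TPM, so the other transcripts of that library shared the remainder. Summed markers of brown adipocytes ranged from 4806 to 8351 TPM, with *Ucp1* at 2353 to 4423 TPM, so the tissue matched its label. Markers of skeletal muscle ranged from 1.92 to 3842 TPM over the libraries. In such bulk tissue, fewer cells of a type and less RNA per cell cannot be told apart.

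*Gdf15* (ENSMUSG00000038508, chromosome 8), the targeted gene, was at 0.368, 0.690, 1.55 and 3.81 TPM in male WT mice and at 0.0915, 0.0801, 0.255 and 0.272 TPM in male KO mice. Every male KO mouse was below every male WT mouse (log2 fold change -1.38, two-sided exact permutation test, p = 0.0286, and no smaller p is possible with 4 mice in each group). Without any 1 of the male KO libraries the p became 0.0571, with log2 fold changes of -1.45 to -1.31. Female WT mice had 0.0622, 0.311, 0.170 and 0.290 TPM, and the gene was listed at 0 in female KO mice apart from replicate 3 at 0.0794 TPM. The female groups overlapped (log2 fold change -0.43, exact two-sided permutation test, p = 0.0571). Male WT mice were all above female WT mice (log2 difference 1.31, exact two-sided permutation test, p = 0.0286). The part of the gene that Cre removes is not stated in the sources used here, and the source of the residual TPM in KO mice was not tested.

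The promoters of the members are shown because ATF4 and its C/EBP partners are known to bind an element read as TGATGNAA, with TGATGCAA as its stricter form, which every match of the stricter form also counts toward. RefSeq windows of the mouse build GRCm38.p6, from 250 bases before to 50 bases after each start, were searched on both strands, and all 10 members were found in that table. The looser form was present for 4 of 10 members and the stricter one for 2 of 10. Over all 27025 gene symbols in the table, 4.51% had the looser form and 1.03% the stricter form. The capitals mark the match, and each stretch is written 5′ to 3′ along the strand of its gene. *Atf3* and *Fgf21* held the stricter form on the opposite strand, with first bases 110 and 139 bases before the start. *Asns* held the looser form 23 bases before the start, and in *Trib3* it began at base 15 of the transcribed part, for which only a short stretch is given.
Atf3, chr1:191183390-191183489, minus strand: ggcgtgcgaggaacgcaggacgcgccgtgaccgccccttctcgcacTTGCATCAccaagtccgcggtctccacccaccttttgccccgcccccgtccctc
Fgf21, chr7:45615576-45615675, minus strand: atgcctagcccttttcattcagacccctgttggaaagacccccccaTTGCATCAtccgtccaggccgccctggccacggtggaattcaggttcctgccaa
Asns, chr6:7693210-7693309, minus strand: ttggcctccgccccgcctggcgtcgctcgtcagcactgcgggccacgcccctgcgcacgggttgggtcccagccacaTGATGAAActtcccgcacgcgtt
Trib3, chr2:152344028-152344057, minus strand: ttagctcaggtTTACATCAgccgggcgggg
No match was found in the windows of *Atf4*, *Atf5*, *Ddit3*, *Sesn2*, *Mthfd2*, *Psat1* or *Gdf15*, which says only that these letters are not in those windows. Among other pathway genes, 5 of the 8 tRNA synthetases in the table and 4 of 13 genes of secreted and growth-arrest stress outputs held the looser form. None of 9 mitochondrial chaperones and proteases and none of 10 ER chaperones and sensors did.

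The members spanned a wide range of levels. *Atf5* was highest, with a mean of 73.5 TPM over the 16 libraries, followed by *Atf4* at 59.3, *Ddit3* at 35 and *Asns* at 26.6 TPM. *Sesn2* followed at 8.15 and *Atf3* at 6.07 TPM. *Trib3* at 2.97, *Psat1* at 2.26 and *Mthfd2* at 2.12 TPM lay close together, and their ranges over the libraries overlapped. *Fgf21* was lowest at 0.617 TPM, under the minimum mean TPM of 1 that was set for the test across genes, so 9 of the 10 members were tested. Genotypes were compared by limma fits to log2(TPM + 0.5), with Benjamini-Hochberg adjustment over all genes tested and a threshold of 0.05. On that scale a fold change is understated where the TPM is low.

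**Figure D1:**
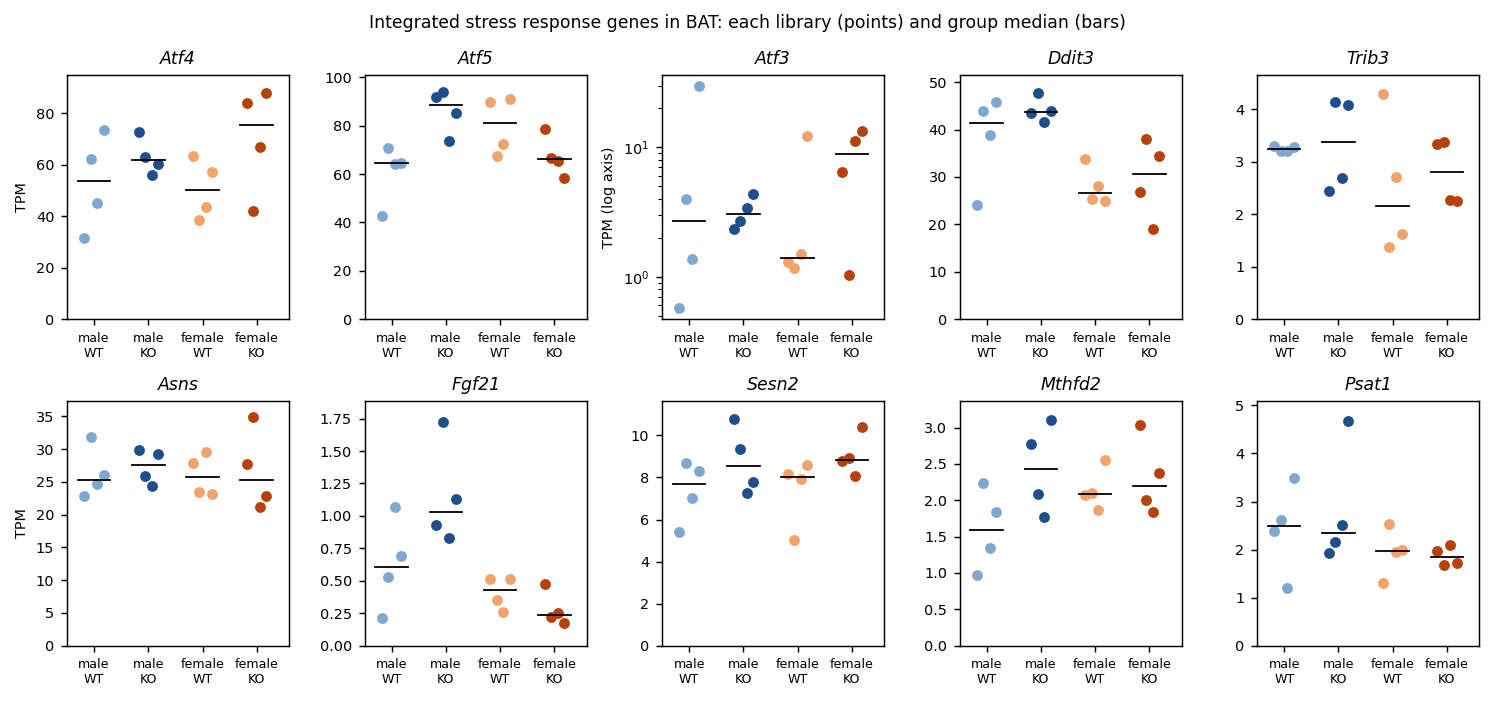
TPM of the 10 members (y axes, from 0 except for *Atf3*, which has a log axis) in each library of the 4 groups (x axes), with points for mice and horizontal bars for group medians. The male KO mice lie between 73.7 and 93.7 TPM for *Atf5*, above the 42.6 to 70.6 TPM of the male WT mice, and 1 male WT mouse reaches 30 TPM for *Atf3*.

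*Atf4* encodes the transcription factor at the center of the response. Its mRNA was at 31.7, 62.3, 45.0 and 73.4 TPM in male WT mice and at 72.8, 63.2, 56.1 and 60.2 TPM in male KO mice. The male KO values lay inside the WT range, with the lowest value of the group above the 2 lowest WT mice. Female WT mice had 63.5, 38.6, 43.5 and 57.3 TPM, and female KO mice had 83.8, 42.0, 67.0 and 87.7 TPM. Of the female KO mice, 3 were above every WT mouse and 1 was near the WT minimum. The log2 fold change was 0.31 (SE 0.24, adjusted p = 0.485) in males and 0.43 (SE 0.26, adjusted p = 0.394) in females, and neither passed the threshold. The 95% confidence intervals ran from -0.23 to 0.86 and from -0.15 to 1.02. With median-of-ratios scaling the male value was 0.15, and it was 0.09 without male WT replicate 1, the library with the highest mitochondrial share.

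*Atf5* encodes a related factor that is translated in the same way as *Atf4* and is known for its part in the mitochondrial unfolded protein response. Male WT mice had 42.6, 70.6, 64.2 and 64.6 TPM and male KO mice 91.7, 93.7, 73.7 and 85.1 TPM. Every male KO mouse was above every male WT mouse, and *Atf5* was the single member of which this held in either sex (9.54% of all genes tested in males had all KO mice above all WT mice). Its log2 fold change in males was 0.52 (SE 0.17, unadjusted p = 0.0117, adjusted p = 0.203), which did not pass the threshold. Under median-of-ratios scaling it was 0.36, and it was 0.37 without male WT replicate 1. In females the order of the groups was the other way around, with 89.9, 67.6, 72.2 and 90.8 TPM in WT and 78.5, 66.7, 65.3 and 58.3 TPM in KO mice. These groups overlapped, and the log2 fold change of -0.25 (SE 0.16, adjusted p = 0.412) did not pass the threshold. The male effect minus the female effect was 0.77 (SE 0.23, unadjusted p = 0.00387, adjusted p = 0.215), so the difference between the sexes did not pass it either. Over all alternative settings and left-out libraries this difference stayed between 0.61 and 0.86, with adjusted p of 0.123 to 0.431. Summed macrophage markers, 7 of 8 of them with a mean of at least 1 TPM, were at 40.1 to 77.4 TPM in male WT and at 101 to 149 TPM in male KO mice, also without overlap, as were summed fibroblast markers at 48.3 to 72.9 against 75.6 to 85.7 TPM, and their part in the *Atf5* values was not tested. In females the macrophage sums were 46.8 to 104 TPM in WT and 66.4 to 97.0 TPM in KO mice, and the fibroblast sums were 60.2 to 71.3 and 59.1 to 87.4 TPM.

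Annotated transcripts divided the *Atf5* signal unequally. Atf5-201 held 82.6% of the mean TPM of the gene and a second transcript held 17.4%. Atf5-201 was at 28.0, 58.2, 50.9 and 59.0 TPM in male WT and at 85.2, 81.9, 65.2 and 68.3 TPM in male KO mice, again without overlap. In females it was at 76.3, 51.2, 60.7 and 88.8 TPM in WT and at 55.3, 40.5, 47.4 and 53.3 TPM in KO mice. The means of the second transcript were 11.4 and 10.9 TPM in WT and KO males and 10.8 and 18.1 TPM in WT and KO females, so the higher total in male KO mice lay in Atf5-201. The division between transcripts that share sequence is estimated by the quantification and was not tested.

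**Figure D2:**
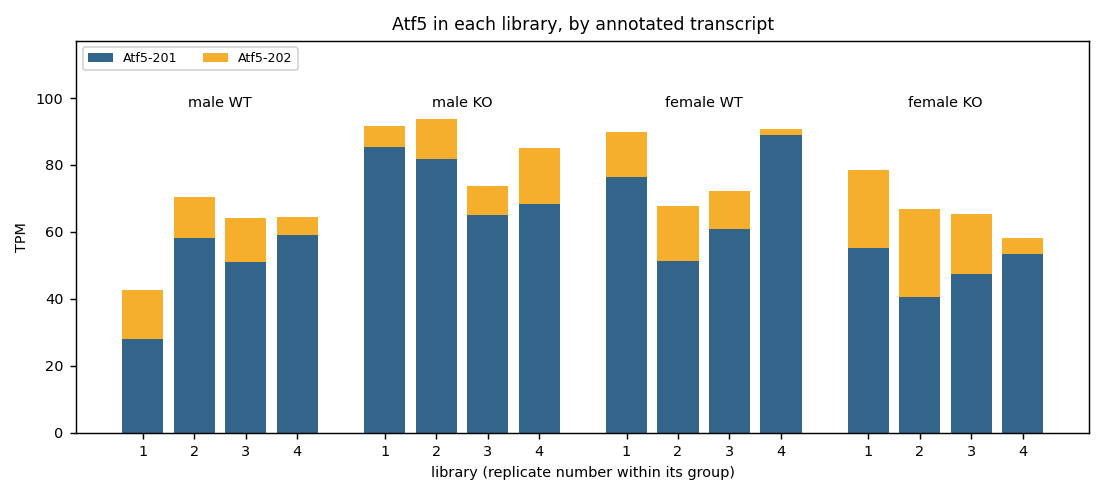
*Atf5* TPM (y axis) in each of the 16 libraries (x axis, by replicate number within each group), stacked by annotated transcript. The blue Atf5-201 part of every male KO bar, 65.2 to 85.2 TPM, is taller than that of every male WT bar, 28.0 to 59.0 TPM.

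*Atf3* encodes a rapidly induced member of the same family. It varied most within groups, with 0.571, 4.0, 1.38 and 30 TPM in male WT mice and 2.34, 2.71, 3.42 and 4.33 TPM in male KO mice. A single male WT mouse, replicate 4, was far above all others. Female WT mice had 1.30, 1.16, 1.49 and 12.2 TPM, again with 1 high library, replicate 4, and female KO mice had 6.43, 1.03, 11.3 and 13.5 TPM. The log2 fold change was -0.17 (SE 0.89, adjusted p = 0.925) in males and 1.13 (SE 0.82, adjusted p = 0.471) in females. Without male WT replicate 4 the male value turned to 0.80 (adjusted p = 0.296), and without female WT replicate 4 the female value was 1.84 (adjusted p = 0.328). With confidence intervals from -2.18 to 1.84 in males and from -0.73 to 2.99 in females, a difference in either direction was not detectable with this spread.

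The libraries were also read for immediate early genes, which are induced within minutes by many stimuli and by tissue handling. *Fos*, *Jun*, *Junb* and *Egr1* are given here, chosen after their values were seen. In male WT replicate 4, *Fos* was at 171, *Jun* at 79.6, *Junb* at 41.3 and *Egr1* at 126 TPM, each the highest of the 16 libraries. In the other 3 male WT mice *Fos* was at 0.161, 2.71 and 0.0965 TPM and *Jun* at 8.32, 29.9 and 9.13 TPM. In female WT replicate 4, *Jun* at 44.9 TPM was the second highest of all libraries, while *Fos* was at 4.69 TPM. The 2 other libraries with more than 10 TPM of *Atf3* differed from each other, with *Jun* at 43.4 and *Fos* at 8.39 TPM in female KO replicate 3. In female KO replicate 4, which had more *Atf3* than female WT replicate 4, *Jun* was at 18.1, *Fos* at 0.857, *Junb* at 2.75 and *Egr1* at 2.68 TPM. The summed level of the 11 listed immediate early genes ran from 46.4 to 989 TPM in WT males and from 141 to 173 TPM in KO males, against 91.7 to 372 TPM in WT females and 74.4 to 390 TPM in KO females. The part of tissue handling in these values was not tested.

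*Ddit3* encodes CHOP, a C/EBP-like factor tied to prolonged stress and cell death. Its values were 24.2, 44.0, 38.8 and 45.8 TPM in male WT and 43.4, 47.7, 41.5 and 44.0 TPM in male KO mice. The KO mice formed a narrow band in the upper part of the WT range and just above it. In females, WT mice had 33.8, 25.4, 28.0 and 24.9 TPM and female KO mice 26.8, 38.1, 19.1 and 34.4 TPM, with the WT range inside the KO range. The log2 fold change was 0.25 (SE 0.19, adjusted p = 0.485) in males and 0.04 (SE 0.22, adjusted p = 0.930) in females. The symbol covers 2 gene identifiers, and the transcript of the second, Ddit3-204, held 2.06% of the mean TPM, at 3.10 TPM in female WT replicate 4 and 8.41 TPM in female KO replicate 2 and at 0 elsewhere.

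*Trib3* encodes a pseudokinase that feeds back on ATF4 and CHOP. It was nearly constant in male WT mice, at 3.30, 3.20, 3.21 and 3.28 TPM, and split into 2.45, 4.13, 2.68 and 4.08 TPM in male KO mice around the same mean. In females it was at 4.29, 1.38, 2.71 and 1.62 TPM in WT and 3.33, 3.37, 2.28 and 2.26 TPM in KO mice. The log2 fold change was 0.00 (95% confidence interval -0.37 to 0.38, adjusted p = 0.993) in males and 0.22 (-0.44 to 0.89, adjusted p = 0.687) in females.

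The 3 members that encode biosynthetic enzymes differed in level. *Asns*, asparagine synthetase, a classical ATF4 target, was at 22.8, 31.9, 24.7 and 26.0 TPM in male WT and 29.9, 25.9, 24.4 and 29.3 TPM in male KO mice. WT females had 27.9, 23.5, 29.6 and 23.1 TPM and female KO mice 27.7, 34.9, 21.1 and 22.8 TPM. All 4 groups covered much the same range, and the log2 fold changes were 0.06 (95% confidence interval -0.22 to 0.34, adjusted p = 0.803) in males and 0.01 (-0.39 to 0.42, adjusted p = 0.976) in females. A change of *Asns* to 2 times its level in either sex lies outside these intervals.

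*Psat1*, phosphoserine aminotransferase of serine synthesis, was at 2.39, 2.61, 1.21 and 3.5 TPM in male WT and 1.93, 2.16, 2.51 and 4.68 TPM in male KO mice. Its highest value, in male KO replicate 4, stood alone in its group. WT females had 1.30, 2.53, 1.94 and 1.99 TPM and female KO mice 1.97, 1.67, 2.10 and 1.72 TPM. The log2 fold changes of 0.18 (SE 0.31, adjusted p = 0.765) in males and -0.02 (SE 0.19, adjusted p = 0.951) in females did not pass the threshold.

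*Mthfd2*, a mitochondrial enzyme of one-carbon metabolism, was at 0.966, 2.24, 1.34 and 1.84 TPM in male WT and 2.77, 2.09, 1.77 and 3.10 TPM in male KO mice. Of the male KO mice, 2 were above all WT mice and 2 were within their range. The log2 fold change in males was 0.50 (SE 0.23, unadjusted p = 0.0592, adjusted p = 0.279), second among the 9 tested members after *Atf5*. In females, WT mice had 2.07, 2.10, 1.86 and 2.55 TPM and female KO mice 3.04, 2.01, 1.84 and 2.38 TPM, with a log2 fold change of 0.08 (SE 0.17, adjusted p = 0.812).

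*Sesn2* encodes sestrin 2, a leucine sensor that restrains the growth kinase mTORC1. It was at 5.4, 8.68, 7.04 and 8.32 TPM in male WT and 10.8, 9.34, 7.25 and 7.77 TPM in male KO mice. WT females had 8.14, 5.03, 7.92 and 8.59 TPM and female KO mice 8.77, 8.91, 8.06 and 10.4 TPM. In each sex the lowest mouse was a WT mouse and the highest a KO mouse, and the groups overlapped. The log2 fold change was 0.25 (SE 0.17, adjusted p = 0.442) in males and 0.29 (SE 0.17, adjusted p = 0.393) in females.

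*Fgf21* encodes a hormone that BAT can release under stress or cold. Male WT mice had 0.211, 0.532, 1.07 and 0.688 TPM and male KO mice 0.933, 1.72, 0.827 and 1.13 TPM. The female values were 0.515, 0.351, 0.256 and 0.512 TPM in WT and 0.476, 0.224, 0.250 and 0.178 TPM in KO mice. Every male KO mouse was above every female mouse of either genotype. That contrast was not a planned comparison and mixes sex with genotype. The share of all genes with the same order was not determined, so it carries no test. Within each sex KO and WT overlapped, with log2 fold changes of 0.58 in males (exact two-sided permutation test, p = 0.0857) and -0.22 in females (exact two-sided permutation test, p = 0.171). At these low TPM the reads behind a value may be few, and their number is unknown.

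Read together, the members gave no call in either sex. In males, 0 of 9 tested members passed the adjusted threshold, against 0.00821% of the 12177 genes tested. At an unadjusted p under 0.05, 1 of 9 (*Atf5*) was higher, where the share of all genes was 17.7%, and 0 of 9 were lower, against 1.07%. *Atf5* was also the single member whose male groups did not overlap, where 9.54% of all genes had all KO mice above all WT mice and 0.673% all below. In males more genes were higher than lower by both measures. In males the median over all genes was a log2 fold change of 0.16, beside 0.25 for the 9 members, of which 6 were above the median of all genes. Under median-of-ratios scaling that median was 0.01, and the genes at an unadjusted p under 0.05 went from 2151 higher and 130 lower to 1041 higher and 863 lower.

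In females, 0 of 9 tested members passed the adjusted threshold with limma, as did 0% of the 12141 genes tested, and 0 of 9 had an unadjusted p under 0.05. The shares of all genes at that p were 11.6% higher and 5.46% lower, and under median-of-ratios scaling the 1414 higher and 663 lower genes became 1305 and 1139. The groups of all 9 members overlapped, where 4.90% of all genes had every KO mouse above every WT mouse and 3.19% every KO mouse below. The median log2 fold change of the members was 0.08, beside 0.10 for all genes.

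**Figure D3:**
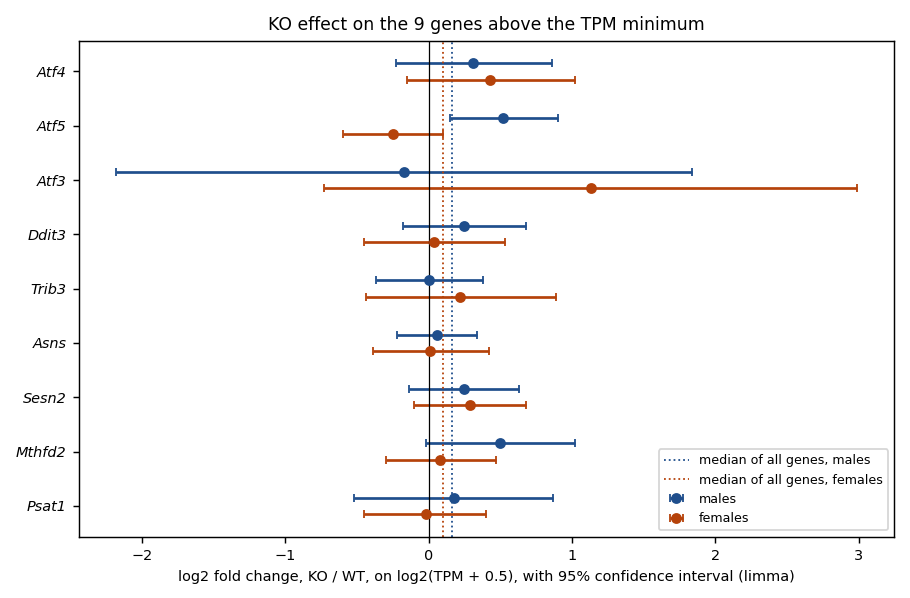
Log2 fold change of KO against WT (x axis, with 95% confidence intervals from limma) for the 9 tested members (y axis) in males (blue) and females (red), with dotted lines for the medians of all genes, 0.16 and 0.10. The male interval of *Atf5*, 0.15 to 0.90, is the only one that leaves out 0.

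The male minus female KO effect passed the adjusted threshold for 0 of 9 members and for 0% of 12210 genes. *Atf5* was the single member at an unadjusted p under 0.05, toward a more positive effect in males, where 11.7% of all genes pointed that way and 2.51% the other way. Under median-of-ratios scaling the split of all genes went from 1431 and 306 to 1138 and 1131. Limma called 0 genes here, and 0 genes in the female comparison, at the adjusted threshold.

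The mean KO effect over both sexes used all 16 libraries. Its log2 fold change was above 0 for all 9 tested members, from 0.04 for *Asns* to 0.48 for *Atf3*, and under median-of-ratios scaling it was below 0 for *Asns* (-0.09) and *Psat1* (-0.03). The median of the members was 0.14, beside 0.13 for all genes. None of the 9 passed the adjusted threshold, which 2.95% of all genes did. *Sesn2* alone had an unadjusted limma p under 0.05 (log2 fold change 0.27, SE 0.13, unadjusted p = 0.0497, adjusted p = 0.208), where 21.4% of all genes were higher and 2.58% lower at that p. By p, *Mthfd2* followed at 0.29 (SE 0.14, adjusted p = 0.232) and then *Atf4* at 0.37 (SE 0.19, adjusted p = 0.234). All genes past the adjusted threshold numbered 317 higher and 43 lower, and 261 higher and 211 lower under median-of-ratios scaling.

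Male and female WT mice did not differ past the threshold for any of the 9 tested members, which 0.0664% of the 12042 genes tested did. *Atf5* had the smallest p, with a log2 difference of -0.42 for male minus female (SE 0.19, unadjusted p = 0.0557, adjusted p = 1.0), followed by *Ddit3* at 0.41 (SE 0.21, unadjusted p = 0.0843, adjusted p = 1.0). For all 9 the male and female WT mice overlapped. Of all genes, 2.18% were higher and 1.25% lower in males at an unadjusted p under 0.05, and 1.20% lay entirely above and 0.722% entirely below the female values. The prefix of the library name differed fully between these groups, so any batch it may mark and sex cannot be told apart.

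Within groups the members did not move as 1 block. After the group means were subtracted, 27 of the 36 pairs of the 9 members with a mean of at least 1 TPM had a positive Pearson r over the 16 libraries, with a median of 0.39 and a range from -0.33 to 0.76. *Atf4* was most like *Atf3* (r 0.76, Spearman rho 0.68), *Sesn2* (0.70, rho 0.66), *Mthfd2* (0.67, rho 0.58) and *Atf5* (0.64, rho 0.58). Without the 2 libraries farthest from the median of *Atf4*, the r with these genes was 0.59, 0.74, 0.56 and 0.58. The enzymes *Asns* (r -0.04) and *Psat1* (r 0.05) and the regulator *Trib3* (r 0.06) were near 0 with *Atf4*, and without the same 2 libraries, male WT replicate 1 and female KO replicate 2, these values were 0.23, 0.03 and 0.26. *Asns* had higher r with *Ddit3* (0.64, rho 0.56) and *Trib3* (0.50, rho 0.45). Without the 2 libraries farthest in *Ddit3* the first was 0.47, and without the 2 farthest in *Trib3* the second was 0.51. *Gdf15* had an r of 0.66 with *Atf3* (rho 0.31), which was 0.37 without male WT replicate 4 and female WT replicate 4. With *Atf4* its r was 0.36 (rho -0.04), and 0.09 without the 2 libraries farthest in *Atf4*. Outside male WT mice *Gdf15* was at most 0.311 TPM. The points share a library and its scaling, so these values describe the 16 libraries and carry no test.

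Further genes stood closer to *Atf4* and *Atf3* than any member did. *Ppp1r15a*, which encodes the phosphatase subunit GADD34 that reverses eIF2 phosphorylation, had an r of 0.90 with *Atf4* (rho 0.93, and 0.86 without the 2 farthest libraries). *Cebpb*, a C/EBP partner, had an r of 0.85 (rho 0.81, and 0.85). *Jun* had an r of 0.89 with *Atf3* (rho 0.77, and 0.76 without male WT replicate 4 and female WT replicate 4). These 3 genes were chosen after their values were seen. By the rule of highest r over all genes with a mean of at least 1 TPM, *Atf4* was most like *Sgk1*, *Pnrc1* and *Golga3* (each 0.93), *Atf5* like *Rarg* (0.94), *Tnip2* (0.93) and *Vps37c* (0.91), and *Atf3* like *Adamts1* (0.96), *Apold1* (0.95) and *Thbs1* (0.93). *Ddit3* was most like *Kansl2* (0.93), *Tbl2* and *Iba57* (each 0.90), and *Sesn2* like *Crispld2* (0.91), *Agap1* (0.90) and *Sprtn* (0.89). For *Asns* these were *Kctd13* (0.92), *Cdkn2d* (0.91) and *Ppm1m* (0.88), and for *Trib3* they were *Snx25* (0.89) and *Poll* (0.88). *Mthfd2* had *Arl5b* (0.87), *Cdk5rap2* (0.83) and *Icmt* (0.82), and *Psat1* had *Cfb* (0.88), *Serpina3n* (0.84) and *Gm4876* (0.83).

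**Figure D4:**
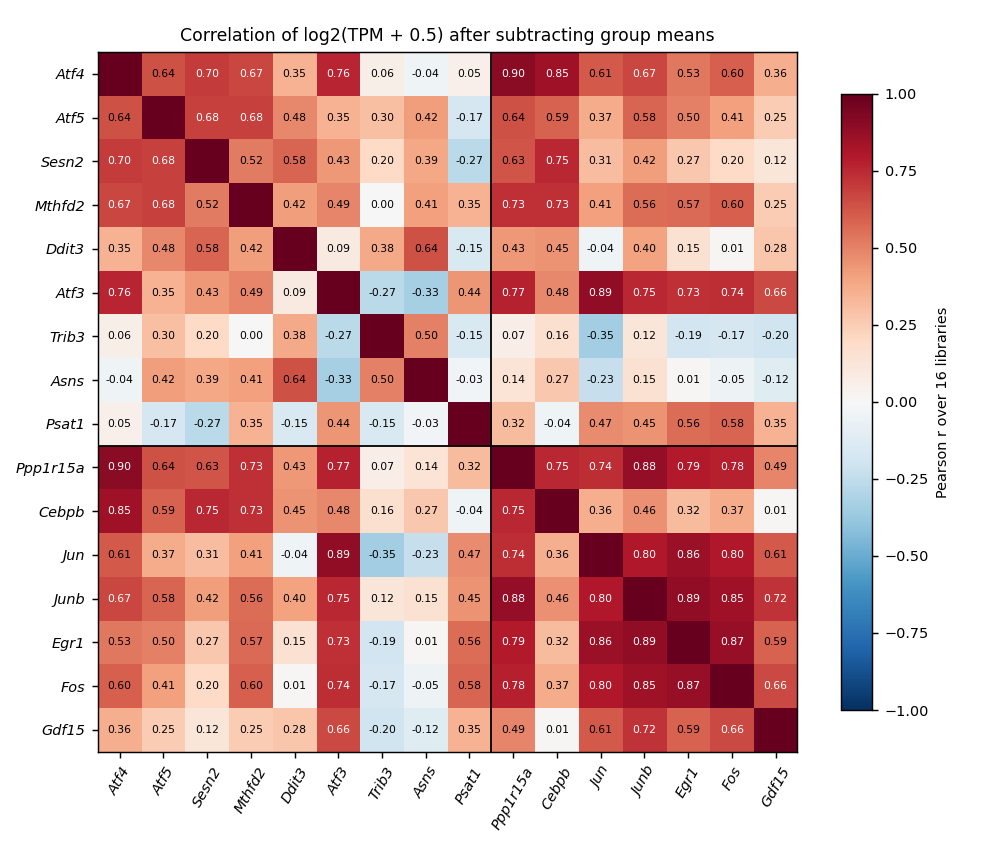
Pearson r over 16 libraries (color and printed value) of log2(TPM + 0.5) after subtraction of group means, for the 9 members with a mean of at least 1 TPM (above and left of the lines) and 7 further genes. *Atf4*, *Atf5*, *Sesn2* and *Mthfd2* have r of 0.52 to 0.70 among themselves, whereas *Asns* and *Trib3* are near 0 with *Atf4*.

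Other genes of the pathway were taken from fixed lists. Of the 16 upstream kinases and eIF2 regulators, 0 passed the adjusted threshold in either sex. In males 1 was higher at an unadjusted p under 0.05, *Eif2ak1*, the heme-regulated eIF2 kinase that also relays mitochondrial stress (log2 fold change 0.30, SE 0.11, adjusted p = 0.221). The share of all genes was 17.7% higher and 1.07% lower. In females 3 were higher and 1 lower at that p, where the shares of all genes were 11.6% and 5.46%, with *Eif2b4*, a subunit of the eIF2 exchange factor, at 0.60 (SE 0.19, adjusted p = 0.231) and *Eif2ak2*, the kinase activated by double-stranded RNA, at -0.42 (SE 0.12, adjusted p = 0.231). Their median log2 fold change was 0.10 in males and 0.09 in females, beside 0.16 and 0.10 for all genes. *Eif2b3* was the one gene of this list at that p between male and female WT mice (log2 difference 0.30, adjusted p = 1.0).

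The targets of ATF4 in translation and amino acid supply were also examined. All 12 listed tRNA synthetases, which charge tRNAs with amino acids, had a log2 fold change above 0 in males, from 0.05 to 0.44, with a median of 0.24 beside 0.16 for all genes, and 8 of the 12 were above the median of all genes. Of them 0 passed the adjusted threshold and 5 were higher at an unadjusted p under 0.05, where 17.7% of all genes were, among them *Aars* at 0.34 (SE 0.11, adjusted p = 0.205), *Iars* at 0.26 (SE 0.09, adjusted p = 0.214), *Wars* at 0.44 (SE 0.16, adjusted p = 0.223) and *Nars* at 0.35 (SE 0.13, adjusted p = 0.232). Under median-of-ratios scaling these 4 values were 0.18, 0.10, 0.27 and 0.19. In females 7 of the 12 were above 0, with a median of 0.10, the same as for all genes, 6 were above that median, and 0 had an unadjusted p under 0.05. Among 12 enzymes of amino acid and one-carbon metabolism, 8 were tested in males and 9 in females. None passed the adjusted threshold in either sex. At an unadjusted p under 0.05, 4 were higher in males and 1 in females, and 0 were lower. The shares of all genes at that p were 17.7% higher and 1.07% lower in males, and 11.6% and 5.46% in females. *Shmt2*, the mitochondrial serine hydroxymethyltransferase, was at 7.93, 11.8, 10.8 and 10.6 TPM in male WT and at 13.6, 13.6, 14.6 and 14.7 TPM in male KO mice, without overlap (log2 fold change 0.45, SE 0.12, adjusted p = 0.183). In males, 9.54% of all genes had every KO mouse above every WT mouse. Over the alternative settings the *Shmt2* value ran from 0.29 to 0.46. *Gpt2*, an alanine aminotransferase, was at 0.34 in males (SE 0.14, adjusted p = 0.257), and *Cbs*, cystathionine beta-synthase, was at 1.15 in females (SE 0.33, adjusted p = 0.231). *Cbs* was low, at 0.237 to 0.935 TPM in female WT (mean 0.467) and 0.976 to 2.52 TPM in female KO mice (mean 1.66). It met the minimum mean of 1 TPM only through the KO mice, so its selection for the test was not independent of its difference. *Cbs* was not tested in males, and it entered 6 of the 8 female fits without 1 library. *Got1*, an aspartate aminotransferase, had a log2 difference of 0.49 between male and female WT mice (SE 0.19, adjusted p = 1.0). Of 9 amino acid transporters, 3 were expressed enough to be tested, and 0 of them had an unadjusted p under 0.05 in either sex. With so few genes, and with the shares of all genes given above, that count says little about transporters.

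Among 14 stress outputs, 11 were tested for the mean KO effect. *Ddit4*, which encodes the mTORC1 inhibitor REDD1, and *Vldlr*, the very low density lipoprotein receptor, passed the adjusted threshold there, as did 2.95% of all genes. *Ddit4* rose, with 8.04, 7.91, 16 and 6.68 TPM in WT males against 19.4, 15.7, 18.4 and 23.6 TPM in KO males. In females WT mice had 7.55, 4.70, 6.37 and 8.38 TPM against 17.8, 8.17, 7.75 and 18.8 TPM in KO mice, and in each sex the groups overlapped. Its mean log2 fold change was 0.93 (SE 0.22, adjusted p = 0.0370), with 1.03 in males and 0.83 in females. *Vldlr* fell, with every KO mouse below every WT mouse in each sex, and its mean log2 fold change was -0.38 (SE 0.08, adjusted p = 0.0313). Of all genes, 0.673% had every KO mouse below every WT mouse in males and 3.19% in females. In males it was at 24.6, 23.7, 24.5 and 30.3 TPM in WT and at 21.8, 19.5, 22.5 and 20.7 TPM in KO mice, and in females at 28.3, 22.4, 24.0 and 23.9 TPM in WT and at 14.9, 20, 17 and 18.2 TPM in KO mice. Neither gene passed the adjusted threshold within a sex. The *Ddit4* call was lost without any 1 of 10 of the 16 libraries (male WT replicates 1 and 4, all 4 male KO, female WT replicates 2 and 3, female KO replicates 1 and 4), with adjusted p of 0.0502 to 0.0823. The *Vldlr* call was lost without any 1 of 7 (male WT replicates 1 and 3, male KO replicates 2, 3 and 4, female KO replicates 1 and 4), with adjusted p of 0.0534 to 0.0715. With the library name prefix as a covariate, the mean effects were 0.69 (adjusted p = 0.197) and -0.43 (adjusted p = 0.0991). The *Ddit4* call was also lost with median-of-ratios scaling (0.80, adjusted p = 0.0558) and without a TPM minimum (adjusted p = 0.0965), and the *Vldlr* call without a TPM minimum (adjusted p = 0.0619).

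The arms next to the ATF4 branch were looked at in the same way. *Xbp1*, the transcription factor of the IRE1 branch of the ER stress response, was the one gene of 12 ER chaperones and sensors past the adjusted threshold. In the mean KO effect, 2.95% of all genes were past it. It rose in the mean KO effect (log2 fold change 0.44, SE 0.07, adjusted p = 0.0144), a call that held without any 1 of the 16 libraries and was lost with the library name prefix as a covariate (0.46, adjusted p = 0.0578). Female WT mice had 19, 19.8, 21.1 and 18.6 TPM of *Xbp1* and female KO mice 32.8, 27.9, 36.6 and 31.4 TPM, without overlap, where 4.90% of all genes had every KO mouse above every WT mouse. Summed endothelial markers also lay apart in females, at 110 to 147 TPM in WT and 164 to 315 TPM in KO mice, and their part in the *Xbp1* values was not tested. Male WT mice had 19.7, 22.5, 21.1 and 23.4 TPM and male KO mice 23.8, 28.7, 22.8 and 23.4 TPM. The male minus female effect was -0.51 (SE 0.15, unadjusted p = 0.00357, adjusted p = 0.215). Of 12 mitochondrial chaperones and proteases, 0 passed the adjusted threshold in any comparison, and *Htra2*, an intermembrane space protease, was at 0.32 in males (SE 0.13, adjusted p = 0.244). Of the 9 bZIP partners of ATF4, 8 were tested and 0 passed, with *Nfe2l1* at 0.35 in males (SE 0.14, adjusted p = 0.235).

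Receptors for the hormones of the response were present in part. *Gfral*, the receptor of GDF15, which is known from the hindbrain, was listed at 0 in all 16 libraries. *Klb*, the co-receptor of FGF21, reached 7.03 ± 1.02 TPM (SD, n = 4) among WT males and 10.3 ± 1.25 TPM (SD, n = 4) among WT females, without overlap (log2 difference -0.52, SE 0.14, adjusted p = 1.0). Between these groups 0.722% of all genes lay entirely below the female values, and the library name prefix and sex cannot be told apart. In female KO mice it was at 6.88 ± 1.52 TPM (SD, n = 4), and the female log2 fold change was -0.56 (SE 0.17, adjusted p = 0.231). *Fgfr1*, the receptor that pairs with it, had a log2 fold change of 0.33 in males (SE 0.11, adjusted p = 0.205). None of the 11 immediate early genes tested in males and of the 10 tested in females had an unadjusted p under 0.05, and their median log2 fold change was -0.23 in males and 0.40 in females, beside 0.16 and 0.10 for all genes. At that p, 17.7% of all genes were higher and 1.07% lower in males, and 11.6% and 5.46% in females.

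**Figure D5:**
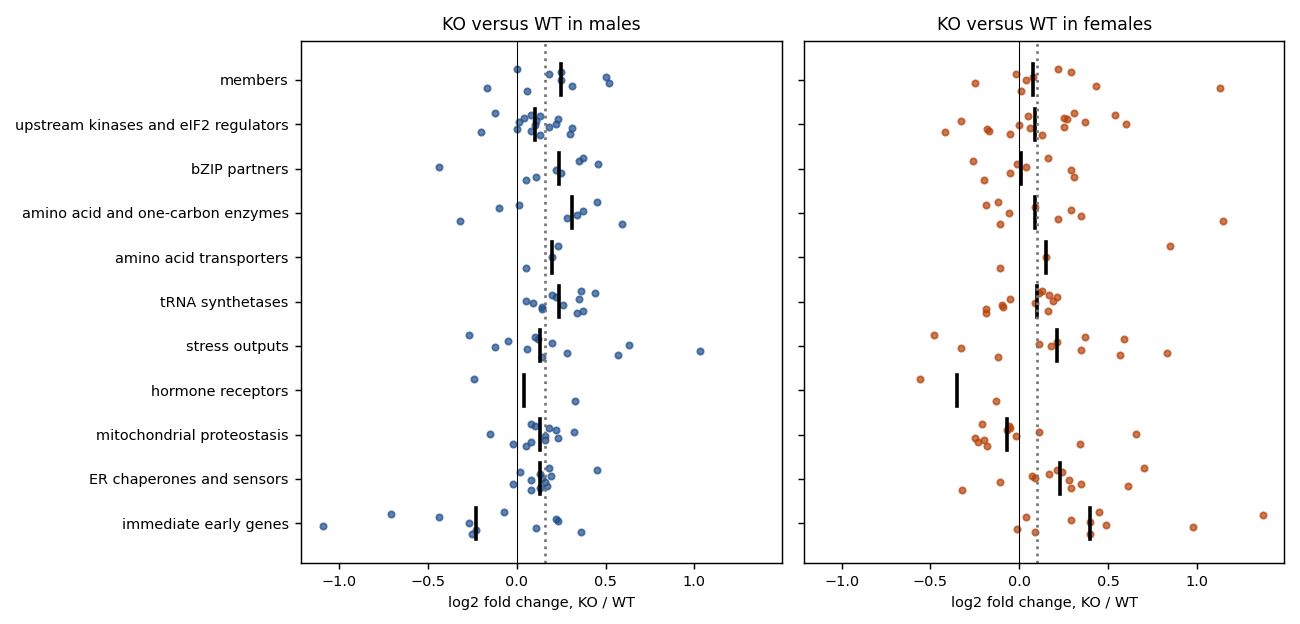
Log2 fold change of KO against WT (x axes) for the tested genes of each list (y axis) in males (left, blue) and females (right, red), with points for genes, black bars for the list medians and dotted lines for the median of all genes. Of the 12 tRNA synthetases, 8 lie above the dotted line in males and 6 in females.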

How the data were processed

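BAT RNA of 16 mice was sequenced. The authors prepared stranded mRNA libraries, quantified single-end reads with kallisto 0.46.2 and deposited transcript-level TPM. The submitters' processing notes name the build GRCm39. Genotype, sex and replicate came from the labels. Transcripts were matched to GENCODE mouse M21 by identifier without version (135051 matched, 2387 did not) and summed per symbol. Values were transformed to log2(TPM + 0.5). Genes with a mean of at least 1 TPM in a comparison were tested with limma 3.58.1 in R 4.3.3 (lmFit, eBayes with trend), with Benjamini-Hochberg adjustment and a threshold of 0.05. Single values were compared with exact two-sided permutation tests. The study's own test needs counts and was not run, and depth is unknown, so no counting interval is given. Mice are separate animals, and replicates are biological.

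Besides the members and *Gdf15*, the text names pathway genes that passed the adjusted threshold, otherwise up to 4 per list with the smallest p, and the 3 genes most like each member, of which 1 is not reported here. The members, lists and tests were chosen with earlier results of these data known. Each result was recomputed after median-of-ratios scaling, with the library name prefix as a covariate or the replicate number as a block, with all 16 libraries in one fit, without each library in turn, without the trend, with a TPM minimum of 5 or none, and with pseudocounts of 1 and 0.1. The fit was tested on simulated data. Promoter sequences and their printed coordinates are from RefSeq (GRCm38.p6), a build other than that of the deposited values. No coordinates on the build of the deposited values are given.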

Additional observations from a re-analysis of the deposited data

Results flagged for a closer look

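Each of the 10 members and *Gdf15* was examined in the 4 groups for a library far from the other 3. Of 44 sets of 4 libraries, 3 held one past Dixon's 95% critical value for 4 values, and chance gives about 1 in 20. *Atf3* was at 30 TPM in male WT replicate 4, where the next highest male WT mouse had 4.0 TPM. The same gene was at 12.2 TPM in female WT replicate 4, where the next had 1.49 TPM. *Gdf15* was at 0.0794 TPM in female KO replicate 3, where the other 3 female KO mice were listed at 0. With 3 equal values any other value passes, so this one says nothing about that library.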

How the results depend on the processing

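No member passed the adjusted threshold in any comparison under any setting run. Of the recomputed values of members, pathway genes and genes named with them, 1129 kept their side of the threshold with no counted change of sign. Of the others, 24 lost a call and 56 changed sign. A value that rounded to 0.00 could not count as a change of sign. This held for *Trib3* in males, at 0.00 in the main fit and -0.14 to 0.12 over the alternative settings. Male KO against WT gave 1 gene past the threshold, and 2 with a pseudocount of 0.1, 0 without a TPM minimum, 3 with median-of-ratios scaling, 6 with the name prefix, 40 with all 16 libraries in one fit and 0 to 5 without 1 library. The female comparison went from 0 genes to 8 with the name prefix, 5 with all libraries in one fit and 0 to 9 without 1 library. The male minus female effect went from 0 genes to 1 without the trend and 0 to 3 without 1 library. The mean effect went from 360 genes to 54 without a TPM minimum, 177 with a minimum of 5, 12 with the name prefix, and from 31 without male KO replicate 3 to 1055 without male WT replicate 2. Male against female WT went from 8 genes to 3 with a minimum of 5 and 5 to 11 without 1 library. The causes were not tested.

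The deviations of same-numbered mice from their group means had r of -0.08 to 0.35 in males and -0.12 to 0.15 in females. No pairing by number was evident, but such values cannot show that the mice were unpaired. With the replicate block, 0 genes passed in males, 1 in females, 0 for the male minus female effect, 522 for the mean effect and 7 between WT sexes. The *Vldlr* call in the mean effect was lost with it (adjusted p = 0.0601).

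*Gdf15* without 1 library was at -1.71 to -0.94 in males, with exact permutation p of 0.0571 without a KO library, and at -0.54 to -0.36 in females, with p = 0.0286 without female WT replicate 1.

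Signs changed with median-of-ratios scaling for *Asns* (-0.10 in males, -0.08 in females, -0.02 male minus female, -0.09 mean, -0.02 between WT sexes), *Ddit3* in females (-0.05), *Psat1* (mean -0.03) and *Atf4* between WT sexes (-0.01). With the name prefix they changed for *Ddit3* (-0.39 in females, -0.03 mean), *Asns* (-0.16) and *Psat1* (0.17) in females, and *Trib3* (0.15 male minus female, -0.05 mean). Without 1 library, male values spanned 0 for *Psat1* (-0.06 to 0.35), *Atf3* (-0.81 to 0.80), *Trib3* (-0.10 to 0.12) and *Asns* (-0.00 to 0.15), and female values for *Asns* (-0.12 to 0.11), *Psat1* (-0.16 to 0.09), *Ddit3* (-0.09 to 0.23) and *Mthfd2* (-0.04 to 0.16). The male minus female effect did for *Asns* (-0.05 to 0.18), *Sesn2* (-0.17 to 0.12), *Psat1* (-0.04 to 0.37) and *Atf4* (-0.35 to 0.05), and the mean effect for *Psat1* (-0.04 to 0.16) and *Asns* (-0.03 to 0.09). Between WT sexes it held for *Sesn2* (-0.17 to 0.13), *Atf4* (-0.16 to 0.25), *Asns* (-0.08 to 0.08) and *Atf3* (-0.50 to 1.17). *Fgf21* entered a fit only without a TPM minimum, members under a mean of 5 TPM gave no value at that minimum, and the name prefix could not be fitted between WT sexes. Depth is unknown, which limits the low members *Fgf21*, *Mthfd2*, *Psat1* and *Trib3* most.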
